A study of Helianthemum marifolium subsp. andalusicum and Helianthemum marifolium subsp. marifolium and Helianthemum marifolium subsp. molle with 16 samples.

Results

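The transcripts described here are 60 clusters of assembled transcripts whose level in leaves of Helianthemum marifolium subsp. marifolium lay above that in every library of the 3 other subspecies, andalusicum, molle and origanifolium. They were chosen from 18896 clusters that had 10 or more counts in each of the 16 libraries, out of 100462 clusters in all. For each library the count of a cluster was divided by the library's total and multiplied by 1000000 (CPM), and a cluster became a member when the lowest CPM of the 4 marifolium libraries exceeded the highest CPM of the 12 others. The members thus made up 0.318% of the clusters with that minimum. Their higher level in marifolium is how they were picked, so it is described below with no test. Members are numbered from 1 to 60 by their gap, the lowest marifolium CPM divided by the highest CPM elsewhere.

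Helianthemum marifolium is a dwarf shrub of the rock-rose family (Cistaceae), and the series was deposited under a title about adaptive mechanisms. All groups were adult leaves, taken near the shoot tip at day 446 after sowing from plants raised from scarified seed in 1 greenhouse regime, with no treatment named. The labels set the groups apart by subspecies, each with 4 libraries under 2 title codes that no other subspecies shares. In marifolium these are 085 (libraries 12 and 15) and 089 (libraries 17 and 18). Differences between subspecies therefore cannot be told apart from differences between their codes. What a code marks, where the seeds came from and whether each library came from its own plant are not stated in the labels. The p-values below therefore reflect library-to-library spread only, which may in part be technical.

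Subspecies grown under 1 regime keep those differences in leaf transcript level that are inherited or carried over from the seed, while differences caused by the growth site are reduced. Without a reference genome, reads are counted against transcripts assembled from the reads themselves, and a cluster collects transcripts that share reads, ideally those of 1 gene. A count can then differ because a transcript is more abundant, or because the allele of 1 subspecies is closer to the assembled sequence, and these cannot be told apart in the table. In whole leaves, more cells of a type and more RNA per cell cannot be told apart either. Clusters come without gene names or sequences here, so no role can be given to any member, and identifiers are printed for members 1 and 2 only.

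Library totals ran from 22170314 to 34121011 counts, and those of marifolium from 29339551 to 31588345. In 6240 clusters over 95% of the total came from marifolium 12 and marifolium 18. These clusters took up 1.60% and 2.52% of the 2 libraries, and at most 0.00570% elsewhere, which is low by the way they were chosen. No other pair of libraries was counted in this way, so the number does not show that this pair stands apart. The members' mean in marifolium 12 and 18 was a median of 2.18 times their mean in the 12 other libraries, and in marifolium 15 and 17 a median of 2.05 times. It was higher in the first pair than in the second for 30 of the 60 members, and in 44.7% of the 18896 clusters.

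**Figure D1:**
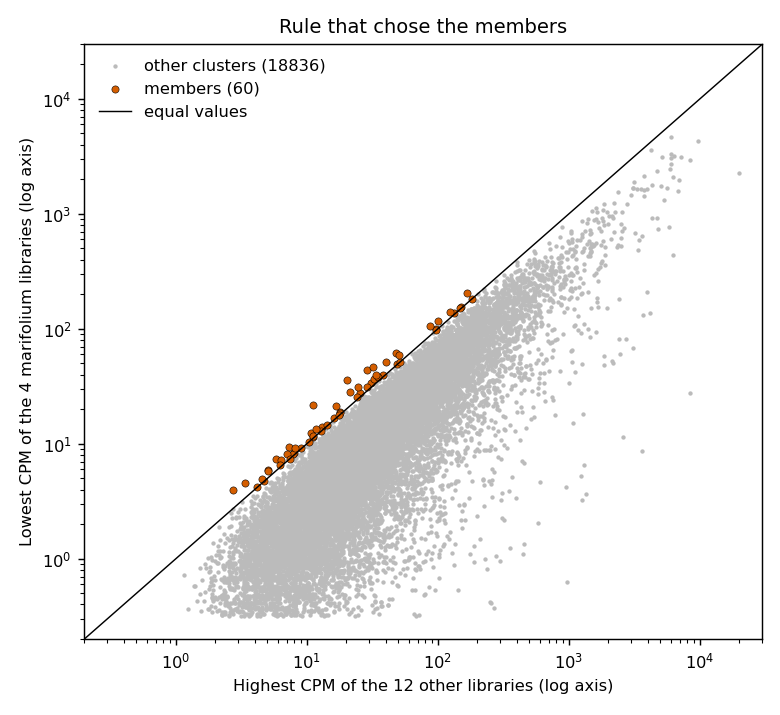
Lowest CPM of the 4 marifolium libraries (vertical log axis) against the highest CPM of the 12 other libraries (horizontal log axis) for the 18896 clusters with 10 or more counts in every library. The line marks equal values. The 60 members lie above it, most of them close to it, with gaps from 1.00004 to 1.97.

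The members were raised by modest amounts. The ratio of the marifolium mean to the mean of the 12 others had a median of 2.24 and ran from 1.45 to 9.20. In 33 members it was above 2, in 8 above 4 and in 1 above 8. On the log2 scale the median was 1.16 over the members and -0.03 over all 18896 clusters. The gap was smaller, with a median of 1.08. It exceeded 1.5 in 3 members and was under 1.1 in 33. Mean levels in marifolium ran from 6.00 to 291.5 CPM, with a median of 27.7 CPM. Over the 12 other libraries the median of the members' mean levels was 11.03 CPM, with quartiles at 5.44 and 28.5 CPM, against 16.5 CPM with quartiles at 6.89 and 40.4 CPM over all 18896 clusters. Together the members took up 0.326% ± 0.0299 of the counts in marifolium (SD, n = 4), 0.154% ± 0.0119 in andalusicum, 0.154% ± 0.00941 in molle and 0.155% ± 0.00422 in origanifolium. The shares of the 3 other subspecies thus lay within each other's spread.

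**Figure D2:**
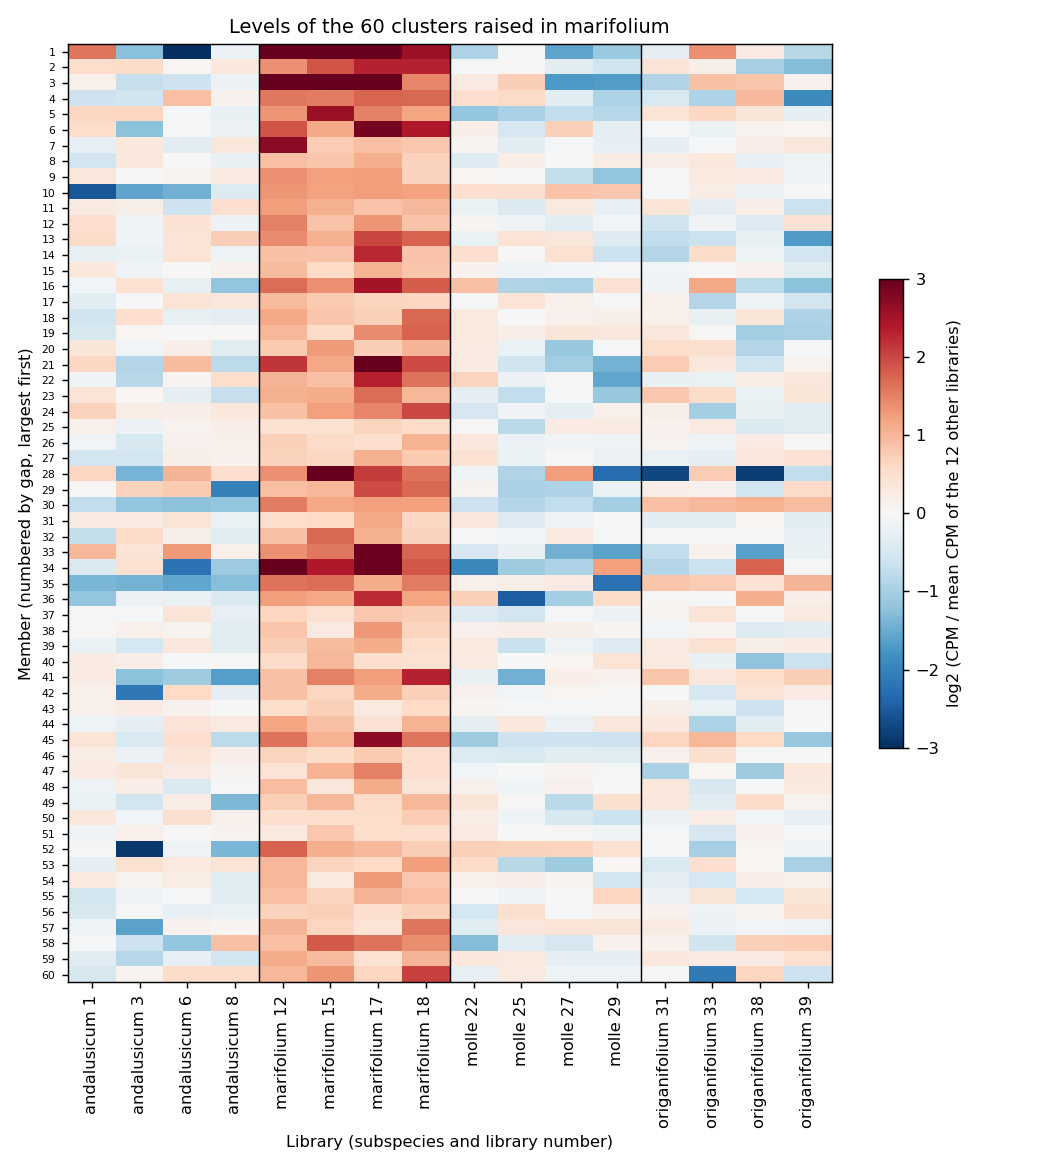
Level of each of the 60 members (rows, numbered by gap) in each of the 16 libraries (columns), as the log2 ratio of its CPM to its mean CPM in the 12 other libraries; colours are capped 3 units either side of 0. The 4 marifolium columns are red in every row, as the rule requires, while within the other columns members 30 and 35 show blocks of colour by subspecies.

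The largest gap belonged to member 1, Cluster-3823.37578. Its libraries marifolium 12, 15, 17 and 18 had 31.2, 31.1, 28.9 and 21.8 CPM. In andalusicum 1, 3, 6 and 8 it had 11.1, 1.51, 0.446 and 3.21 CPM, in molle 22, 25, 27 and 29 it had 1.90, 3.53, 1.20 and 1.67 CPM, and in origanifolium 31, 33, 38 and 39 it had 3.02, 9.38, 4.37 and 2.03 CPM. The marifolium libraries were thus close together, while the others spread over a 24.9-fold range, the widest of any member, with andalusicum 1 and origanifolium 33 well above the rest. The means were 28.2 ± 4.39 CPM (SD, n = 4 marifolium libraries) and 3.61 ± 3.30 CPM (SD, n = 12 libraries elsewhere), which gives a ratio of 7.82. Its lowest count in a library was 12, so that the low end of that range rests on few reads.

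Member 2, Cluster-3823.42062, was more even outside marifolium. It had 35.7, 51.4, 68.9 and 68.7 CPM in marifolium 12, 15, 17 and 18. The 12 other libraries had a lowest value of 5.62 CPM in origanifolium 39, a median of 14.4 CPM and a highest value of 20.3 CPM in andalusicum 3. Its andalusicum mean was 18.0 ± 2.69 CPM, its molle mean 12.0 ± 2.33 CPM and its origanifolium mean 11.6 ± 6.26 CPM (SD, 4 libraries each), so that the means of these 3 lay close against the 56.2 ± 15.9 CPM of marifolium.

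The member with the highest ratio of means, 9.20, was member 3, which also had the widest range inside marifolium, just ahead of member 21 at 6.28-fold. Marifolium 12 had 275 CPM, 15 and 17 had 133 and 132 CPM, and 18 had 43.7 CPM, a 6.29-fold range. Elsewhere it ran from 4.81 CPM in molle 27 through a median of 15.7 CPM to 28.9 CPM in origanifolium 33. Without marifolium 12 its log2 ratio of means was 2.70, and without marifolium 18 it was 3.50, against 3.20 with all 4 libraries.

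Member 4 was level across marifolium and scattered elsewhere. Its marifolium libraries had 48.7, 47.0, 54.9 and 53.4 CPM, and the 12 others ran from 4.31 to 32.1 CPM with a median of 12.4 CPM. Both ends of that range were in origanifolium, in libraries 39 and 38, which share a title code.

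Members 5 and 6 were the lowest in level among the 10 with the largest gaps, at 6.00 ± 3.11 and 9.495 ± 4.45 CPM in marifolium. Member 5, an assembled transcript of 1001 nt, had 4.43, 10.6, 4.97 and 3.99 CPM in marifolium 12, 15, 17 and 18. It was lowest in molle, at 0.927 ± 0.112 CPM, with 2.16 ± 0.650 CPM in andalusicum and 2.18 ± 0.535 CPM in origanifolium. Member 6, of 412 nt, had 7.66, 4.54, 14.9 and 10.8 CPM in marifolium. Among the others it was even, with means of 1.91 ± 0.851 CPM for andalusicum, 2.22 ± 0.867 CPM for molle and 2.04 ± 0.183 CPM for origanifolium.

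In member 7 a single library set the marifolium mean. Marifolium 12 stood at 110.04 CPM and marifolium 15, 17 and 18 at 28.3, 31.2 and 29.4 CPM, while the 12 others lay between 13.2 and 21.3 CPM with a median of 16.2 CPM. All 4 marifolium libraries were above the rest, but the log2 ratio of means was 1.57 with marifolium 12 and 0.82 without it.

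The remaining 3 of the first 10 were raised evenly. Member 8 had 60.1, 56.6, 68.4 and 51.7 CPM in marifolium and between 21.5 and 40.0 CPM elsewhere, with a median of 32.1 CPM. Its means in andalusicum, molle and origanifolium were 30.1 ± 7.59, 32.6 ± 5.74 and 33.1 ± 6.28 CPM, which lie within each other's spread. Member 9 had 11.9, 10.8, 10.98 and 7.43 CPM in marifolium and between 2.02 and 5.78 CPM elsewhere, with a median of 4.77 CPM. Member 10 was the most constant of all members inside marifolium, at 10.2, 9.30, 9.68 and 9.41 CPM, an SD of 0.06 on the log2 scale. Outside marifolium it was graded, as described further on.

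**Figure D3:**
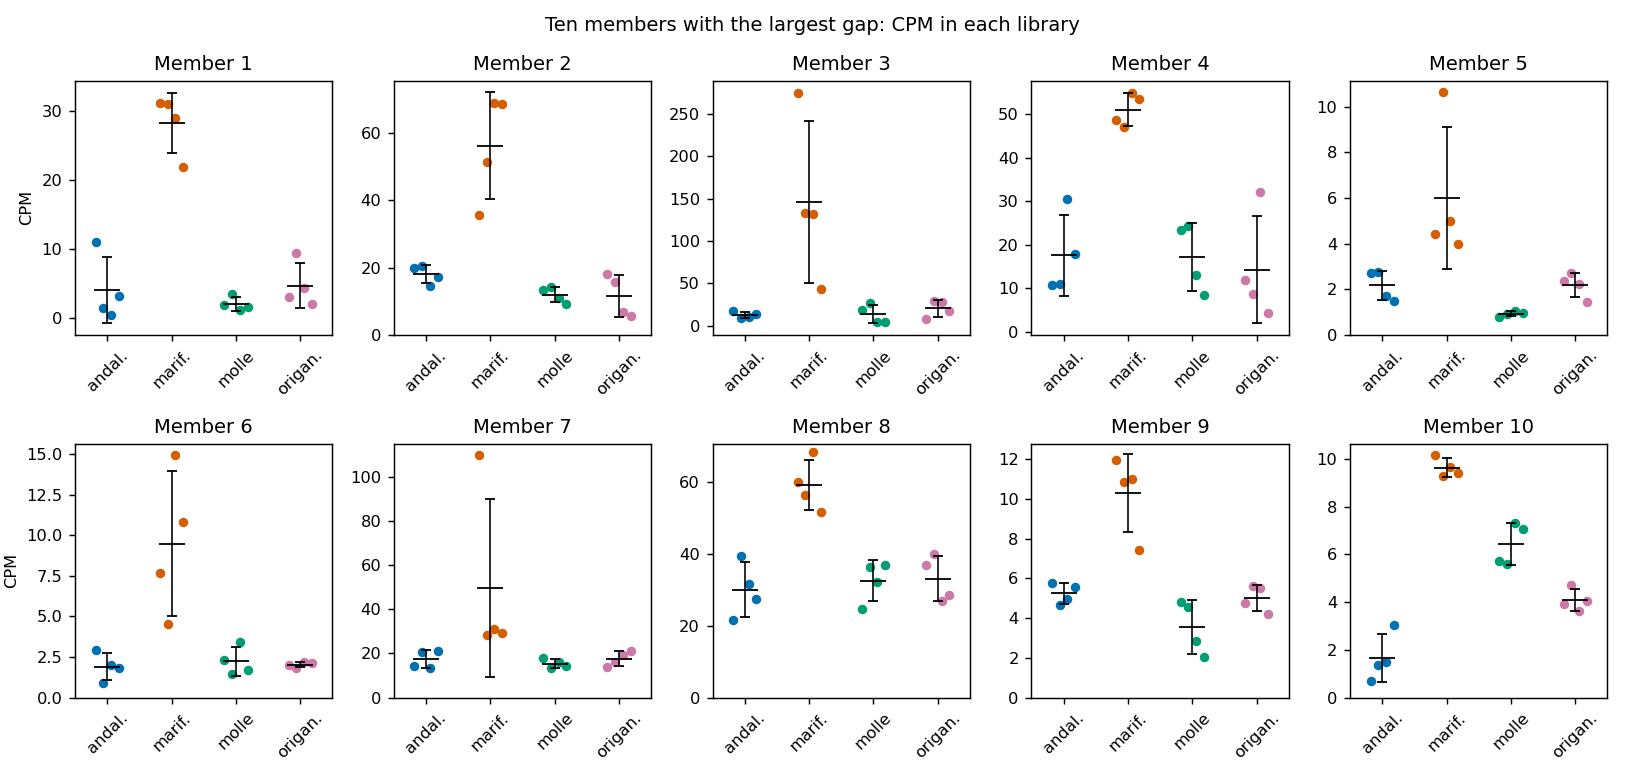
CPM (vertical axis, a separate linear scale in each panel) of members 1 to 10 in the 16 libraries, grouped by subspecies; points are libraries, and the bar with whiskers is the mean ± SD of 4 libraries. All marifolium points lie above all others, with member 3 ranging from 43.7 to 275 CPM inside marifolium and member 7 carried upward by 1 library at 110.04 CPM.

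Among the members with the highest CPM in marifolium, the ratios were small, with 1 exception. Member 14, of 2148 nt, was level in marifolium 12, 15 and 18, with 208.2, 206.5 and 206.3 CPM, and reached 545 CPM in marifolium 17. The 12 others ran from 62.0 to 166.5 CPM, with a median of 102 CPM. Its log2 ratio of means was 1.36, and 0.87 without marifolium 17. Member 55, of 987 nt, had 213 ± 21.6 CPM in marifolium and 116 ± 30.4 CPM elsewhere, and its highest other library, molle 29 at 182 CPM, nearly reached marifolium 15 at 183 CPM. Members 43, 51 and 26, of 1037, 2741 and 1139 nt, had means of 184 ± 22.4, 179 ± 26.1 and 164 ± 28.3 CPM in marifolium, which were 1.45, 1.45 and 1.65 times those elsewhere.

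Levels can be set beside each other between members only per length, and 26 members have a length in their names. By group means they ran in marifolium from 2.01 CPM per kb in member 16, of 4239 nt, to 219 CPM per kb in member 18, of 722 nt. In the 12 other libraries the same members stood at 0.538 and 98.0 CPM per kb. The order by CPM alone was not kept on this scale: member 14, first by CPM, had 136 CPM per kb and lay below member 55, at 216 CPM per kb, and member 43, at 178 CPM per kb.

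Near the threshold the separation was a matter of small fractions of 1 CPM. The 5 members just inside it, members 56 to 60, had gaps between 1.00004 and 1.01. In member 60 marifolium 17 stood at 17.6425 CPM and origanifolium 38 at 17.6417 CPM. The 5 clusters just outside had gaps between 0.995 and 0.998, and their ratios of means, 1.55 to 2.32, overlapped those of the 5 inside, 1.58 to 2.80. A further 232 clusters were separated in the same way but fell short of the count minimum, 212 of them with a count of 0 in at least 1 library and 9 with a lowest count of 5 to 9. The 60 members therefore stand for raised transcripts that every subspecies expressed at a measurable level, not for all clusters separated upward in marifolium, of which there were 292.

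Differences among andalusicum, molle and origanifolium do not enter the rule directly, and these were tested. The test is not free of the choice, however, since the rule caps the highest of these 12 libraries and so limits how far 1 subspecies can rise above the others. With edgeR's quasi-likelihood test on all 16 libraries and Benjamini-Hochberg adjustment over the 46027 clusters that passed the filter on low counts, 3 of the 60 members differed among the 3 subspecies at an adjusted p under 0.05. All 60 members passed that filter. The background was 3.52% of all clusters tested and 3.59% of the 18896 clusters with the count minimum, so that the members' share of 5% lay near it. At an unadjusted p under 0.05 there were 9 members, or 15%, against 20.9% of the 18896 clusters. Pair by pair, 0 members differed between andalusicum and molle (background 0.413% of the 18896 clusters, 0.249% with andalusicum lower; 7 members, or 11.7%, at an unadjusted p under 0.05, against 11.8% of these clusters). DESeq2 called 5 members for this pair, or 8.33%, against 4.34% of the 18896 clusters. Its shares were not above the background in the other comparisons. They were 11.7% against 12.6% among the 3 subspecies, 10% against 10.1% between andalusicum and origanifolium, and 3.33% against 8.54% between molle and origanifolium. With edgeR, 2 members differed between andalusicum and origanifolium, both lower in andalusicum. There 1.99% of all clusters tested and 2.30% of the 18896 were called, and 1.29% of the 18896 in that direction. Between molle and origanifolium 1 member differed, lower in molle, where 1.89% were called and 0.826% in that direction. With the 2 libraries of each title code summed to 1, 0 members were called in any of these comparisons (edgeR; 5 at an unadjusted p under 0.05 among the 3 subspecies), as were 0 of the 18896 clusters. Outside marifolium, most members thus showed no difference between subspecies that passed the test, and neither did most of the 18896 clusters. In simulated data the test recovered 20 of 50 planted 8-fold increases and 13 of 50 planted 8-fold decreases of 1 subspecies. Of planted 2-fold changes it recovered 0 of 50 in either direction. The planted clusters were drawn at random from all 46027 tested, so these shares do not give the recovery for the members. Differences in the members may still have been missed.

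Member 30, a transcript of 1825 nt, was the clearest exception. It had 49.3, 37.8, 39.6 and 39.8 CPM in marifolium 12, 15, 17 and 18, and 31.7, 33.0, 34.98 and 31.9 CPM in origanifolium 31, 33, 38 and 39. In andalusicum 1, 3, 6 and 8 it had 10.1, 7.41, 7.17 and 7.59 CPM, and in molle 22, 25, 27 and 29 it had 10.99, 9.14, 10.2 and 8.35 CPM. The 16 libraries thus fell into a high pair of subspecies and a low pair with no overlap, and marifolium and origanifolium came within 1.08 times of each other at their nearest libraries. The difference among the 3 other subspecies had an edgeR adjusted p of 8.99e-05. Its level in andalusicum was lower than in origanifolium by -2.07 ± 0.20 (log2 fold change ± SE, edgeR adjusted p = 0.000158), and in molle lower by -1.70 ± 0.20 (edgeR adjusted p = 0.000746). Between andalusicum and molle the log2 difference was -0.37 ± 0.19, which did not pass the test (edgeR adjusted p = 0.415). With the libraries of each title code summed to 1, the call among the 3 subspecies was lost (edgeR adjusted p = 0.124), with a range from 1.35e-46 to 0.124 over 24 alternatives. The description of member 30 as raised in marifolium also rests on the scaling, since marifolium no longer lay wholly above origanifolium when libraries were scaled by trimmed mean of M-values (TMM) or by DESeq2 size factors.

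Member 35 was graded over the subspecies. Marifolium 12, 15, 17 and 18 had 17.0, 17.7, 11.8 and 16.3 CPM. The level was 9.83, 9.34, 7.41 and 11.1 CPM in origanifolium, 6.10, 6.21, 6.49 and 1.18 CPM in molle, and 2.11, 2.06, 1.86 and 2.26 CPM in andalusicum. Origanifolium lay above all molle and andalusicum libraries, and molle above andalusicum except for molle 29. The 3 other subspecies differed (edgeR adjusted p = 0.0324), and andalusicum was lower than origanifolium by -2.21 ± 0.45 (log2 fold change ± SE, edgeR adjusted p = 0.0217). The call among the 3 was lost under 15 of 24 alternatives, 11 of them leaving out 1 library, with adjusted p-values from 0.000197 to 0.268. Like member 30, it was no longer separated from origanifolium under both other scalings.

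Member 10 had another order. Against 9.64 ± 0.384 CPM in marifolium, it stood at 5.71, 5.61, 7.30 and 7.06 CPM in molle, at 3.92, 4.71, 3.61 and 4.06 CPM in origanifolium and at 0.693, 1.35, 1.49 and 3.06 CPM in andalusicum, so that the 4 subspecies did not overlap. The 3 other subspecies differed (edgeR adjusted p = 0.0418), whereas no pair passed the test, the nearest being andalusicum and molle, whose log2 difference was -2.05 ± 0.44 (SE; edgeR adjusted p = 0.0566). The call among the 3 was lost under 19 of 24 alternatives, 15 of them leaving out 1 library, with adjusted p-values from 0.000149 to 0.399. Its lowest count in a library was 20.

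The next members by adjusted p did not pass the test. Member 33 had means of 17.1 ± 6.00 CPM for andalusicum, 5.64 ± 2.58 CPM for molle and 7.20 ± 3.34 CPM for origanifolium (edgeR adjusted p = 0.0817), and member 13 in the same order 20.04 ± 4.59, 15.8 ± 4.20 and 8.96 ± 3.38 CPM (edgeR adjusted p = 0.109). In both, unlike members 30, 35 and 10, andalusicum had the highest mean of the 3.

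**Figure D4:**
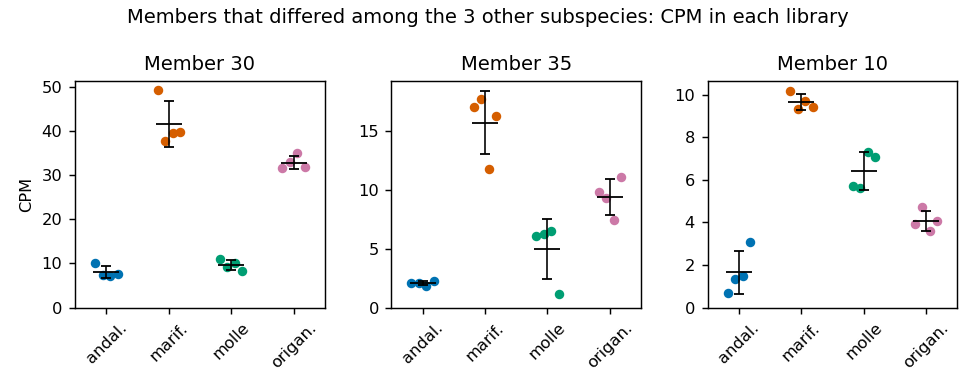
CPM (vertical axis, linear) of members 30, 35 and 10, those that differed among the 3 other subspecies, in the 16 libraries; points are libraries, and the bar with whiskers is the mean ± SD of 4 libraries. Member 30 falls into 2 levels, near 8.07 and 9.66 CPM in andalusicum and molle and near 32.9 and 41.6 CPM in origanifolium and marifolium, and members 35 and 10 are lowest in andalusicum.

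Which of the 3 other subspecies came nearest to marifolium varied from member to member. The highest mean of the 3 others was in origanifolium for 25 members, in andalusicum for 22 and in molle for 13, or 41.7%, 36.7% and 21.7%, against 35.2%, 37.3% and 27.6% of the 18896 clusters. The single library that came closest from below was an andalusicum one for 24 members, an origanifolium one for 20 and a molle one for 16, or 40%, 33.3% and 26.7%, against 39.0%, 31.9% and 29.1% for the highest of the 12 over all these clusters. The median log2 ratio of the marifolium mean to that of andalusicum, molle and origanifolium was 1.16, 1.09 and 1.07 over the members, and -0.03, 0.05 and 0.02 over all 18896 clusters. In 23 members the marifolium mean was more than 2 times that of each of the 3 others. These comparisons share the marifolium libraries. The rule also holds all 12 other libraries below marifolium, and the closest library is the value it cuts at. The counts therefore describe the members and cannot show which subspecies is nearest to marifolium.

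Inside marifolium the rule asks only for a lowest value, so the spread above it was free to vary, although a high lowest value favours even members. The coefficient of variation of the 4 marifolium libraries had a median of 23.7% over the members and 38.4% over all 18896 clusters. In the other subspecies it was 24.2% against 33.0% in andalusicum, 22.5% against 31.1% in molle and 27.0% against 28.3% in origanifolium. There too the rule favours even members, since it caps the highest value of these libraries. Marifolium 17 was the highest of the 4 in 27 members, or 45%, and in 38.2% of all these clusters, and marifolium 15 the lowest in 22 members, or 36.7%, and in 29.2% of the clusters. In 17 members the highest marifolium library stood more than 1.5 times above the next, which was not counted over the 18896 clusters. Marifolium 17 was that library in 7 of them, which describes these members only. Member 21, for example, had 36.4 CPM in marifolium 17 and 11.46, 5.79 and 10.02 CPM in 12, 15 and 18, against at most 5.01 CPM elsewhere. Without marifolium 17 its log2 ratio of means was 1.81, against 2.62 with it.

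Between the marifolium title codes, 0 of the 60 members differed (edgeR with 8 codes of 2 libraries each, adjusted p under 0.05), where 0.0521% of all tested clusters and 0.00529% of the 18896 were called. At an unadjusted p under 0.05 there were 2 members, or 3.33%, against 8.29% of the 18896 clusters, and DESeq2 called 0 members, against 2.49% of these clusters. Code 089 had the higher mean in 36 members, and in 56.7% of the 18896 clusters. The smallest adjusted p-values were those of member 7 (edgeR adjusted p = 0.390) and member 3 (0.412), both higher in code 085. Without marifolium 12 the log2 difference of member 7 went from -1.35 to -0.17, while that of member 3 went from -1.44 to -0.92 without marifolium 12 and to -0.90 without marifolium 18, its lowest library. Members 19, 22 and 21 followed, with edgeR adjusted p-values of 0.441, 0.523 and 0.545 and higher means in code 089. In member 19 all 4 values differed, with 78.8 and 59.3 CPM in code 085 and 106.1 and 136 CPM in code 089. The same fit recovered 1 of 50 planted 8-fold increases and 0 of 50 planted 8-fold decreases of 1 code in simulated data. The planted clusters were drawn at random from all 46027 tested, and their spread came from the fit by subspecies. Those shares therefore do not give how often a code difference of that size would be missed in the members. Code differences in the members may still have been missed.

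Whether a further marifolium library also lies above the rest can be seen by leaving it out of the rule. Chosen without marifolium 12, 118 clusters met the rule, and in 60 of them, or 50.8%, marifolium 12 was above all 12 others, against 8.56% of all clusters with the count minimum in the libraries used. Left out in the same way, marifolium 15 was above in 60 of 179 clusters, or 33.5%, against 6.34%. Marifolium 17 was above in 60 of 136, or 44.1%, against 17.0%, and marifolium 18 in 60 of 147, or 40.8%, against 8.53%. The clusters that passed number 60 in each round because they are the members themselves. In 3 of the 4 rounds most clusters separated with 3 libraries were thus not separated with the fourth. With both libraries of code 085 left out, 588 clusters were chosen on code 089 alone, and both left-out libraries lay above in 10.2% of them, against 1.91%. With code 089 left out, 374 were chosen and 16.04% held, against 2.89%. These shares are a description only: the chosen clusters were already picked for a low highest value in the same 12 libraries that the left-out library is set against, which the background clusters were not. Libraries of 1 code may also share their source.

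**Figure D5:**
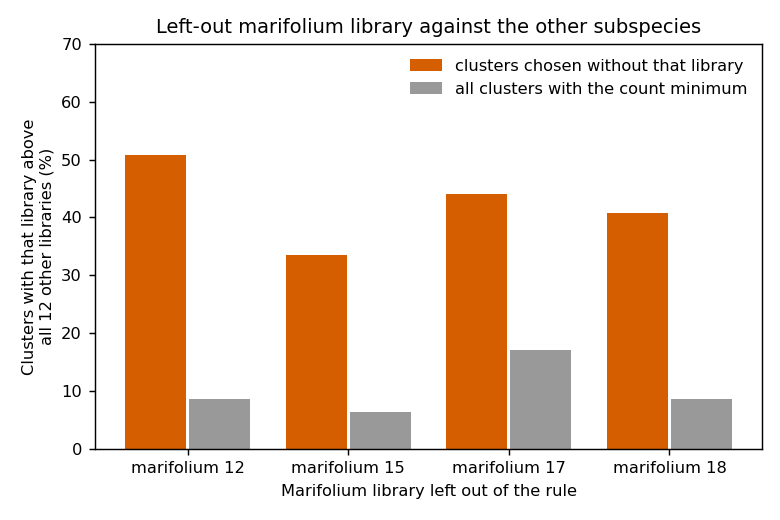
Percentage of clusters (vertical axis) in which the marifolium library left out of the rule (horizontal axis) also lay above all 12 other libraries, for clusters chosen without that library (orange) and for all clusters with 10 or more counts in the libraries used (grey). The orange bars run from 33.5% to 50.8% and the grey ones from 6.34% to 17.0%.

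The set of members depended on how library size was taken. With TMM scaling 59 clusters met the rule, of which 40 were among the 60, and with DESeq2 size factors 67 did, of which 45 were among them. In all, 39 members met it under both other scalings, 7 under 1 of them and 14 under neither. The first 16 by gap met it under both, member 17 being the first that did not. The 39 had a median ratio of means of 2.38 and the other 21 of 1.96. In 12 of the 20 members lost with TMM, marifolium 17 was the lowest marifolium library, and its effective size was 1.18 times its total, the highest factor of the 16. The median log2 ratio of marifolium to the others over all 18896 clusters was -0.03 by column totals, -0.08 with TMM and -0.03 with DESeq2 size factors.

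In transcript number and name style the members were close to clusters at large, whereas those with a length were shorter. A single transcript made up 57 of the 60 clusters, or 95%, against 96.1% of the 18896. Trinity-style names alone stood under 34 members, or 56.7%, against 61.1%, Oases-style names alone under 24, or 40%, against 37.5%, and both under 2, or 3.33%, against 1.42%. Lengths are part of the Oases-style names, and the 26 members with one had a median of 1049 nt with quartiles at 915 and 1879 nt, against 1670 nt with quartiles at 1080 and 2466 nt in 7357 clusters. The members ran from 397 nt in member 47 to 4239 nt in member 16, and 18 of the 26 were under the median of the larger set. Members also stood lower in level than clusters at large, and its part in the shorter lengths was not tested.

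An assembled gene can be spread over several clusters, so the clusters that share an assembler gene name with a member were also examined. Of the 60 members 12, or 20%, had at least 1 such partner cluster, as had 20.2% of the 18896 clusters, and none of the 21 partners was itself a member. Only 4 partners, of members 4, 14 and 37, had 10 or more counts in every library. In none of these 4 did all marifolium libraries lie below all others (0 of 4). Only 63 of the 18896 clusters were lowered in marifolium by this measure, so 0 of 4 shows nothing particular to the partners. The partner of member 14, of 3162 nt, went along with it. Its values in marifolium 12, 15, 17 and 18 were 77.8, 58.0, 158 and 61.7 CPM, with marifolium 17 again the highest, and they ran from 25.3 to 87.4 CPM elsewhere. The partner of member 4 was lower in marifolium on average, at 1.85 ± 0.663 CPM against 3.52 ± 2.32 CPM in the 12 others, but its ranges of 1.26 to 2.73 CPM and 1.13 to 7.94 CPM overlapped. Of the partners of member 37, 1 had 10.4 ± 7.82 CPM in marifolium and 10.9 ± 3.89 CPM elsewhere, and the other 23.6 ± 7.01 and 15.3 ± 3.29 CPM.

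Summed with all their partners, 8 of the 12 members still had all 4 marifolium libraries above the others by column totals, and 3 of the 12 with TMM scaling. Members 17 and 18, among the 8, did not meet the rule with TMM scaling even before summing. The lower number with TMM therefore does not show the effect of the partners alone. For member 4 the sum averaged 52.9 ± 4.33 CPM over the marifolium libraries and 19.8 CPM elsewhere, and for member 14 at 380.4 ± 215 CPM and 155 CPM. In members 22, 24, 37 and 57 the sums overlapped. Member 22 supplied 12.7% of its sum in the other subspecies, the rest coming mostly from a partner of 3485 nt that ran from 36.1 to 123 CPM in marifolium and from 0.0306 CPM in andalusicum 8 to 90.8 CPM in origanifolium 31. The mean of the sum was still higher in marifolium in these 4, by 1.63, 2.67, 1.44 and 1.82 times for members 22, 24, 37 and 57, against 2.99, 2.72, 1.60 and 1.99 times for the members alone. Counted by assembler gene name throughout, 65 names met the rule, and 57 of the 60 members stood under them.

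Among the 18896 clusters, separation upward was rarer in marifolium than in the other subspecies. All 4 libraries lay above the 12 others in 60 clusters for marifolium, 89 for molle, 124 for andalusicum and 198 for origanifolium. Downward, marifolium had 63 such clusters, close to its 60 upward, against 78 for andalusicum, 79 for molle and 127 for origanifolium. Uneven libraries make the rule harder to meet. The median coefficient of variation over these clusters was 38.4% in marifolium, 33.0% in andalusicum, 31.1% in molle and 28.3% in origanifolium. Its part in the counts was not tested.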

How the data were processed

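Poly-A RNA from leaves was sequenced in 16 libraries, per the labels' protocols. The authors deposited raw counts, whole numbers for each library and cluster of assembled transcripts, and a list pairing 122009 transcript names with clusters, of which 18108 stand under a name with no counts and were left out. FastQC was among the tools, per the submitters' processing notes; the assembler, clustering tool, aligner, counter and strandedness are not given in the sources used. Reads shared by related clusters, or by antisense transcripts, may therefore be split or misassigned. All 16 columns were matched by title. No pair of libraries of a subspecies agreed within sampling noise (chi-square per degree of freedom from 56.1 to 165 over 24 pairs).

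CPM was the count divided by the column total times 1000000. Tests were made in R 4.3.3 with edgeR 4.0.16 (TMM scaling, low counts removed with filterByExpr on the 4 groups, the quasi-likelihood test, and calls at a Benjamini-Hochberg adjusted p under 0.05). edgeR's common dispersion of 1.10 corresponds to a biological coefficient of variation of 105%. Alternatives used limma 3.58.1, DESeq2 1.42.0, other scalings, filters and count minimums, and left-out libraries. Standard errors come from the F statistic. Simulated counts, drawn for 46027 clusters with their own means and dispersions and with 200 clusters changed, served to check the test, and planted data the rule. Counting intervals are not given, since reads carry no molecular identifiers and replicate spread is larger.

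Members singled out were the 10 with the largest gap, the 5 with the highest marifolium mean, the 5 with a gap nearest 1, and the 5 with the smallest adjusted p among the 3 other subspecies and between the marifolium codes. Members named beside these (16, 17, 18, 24, 36, 37, 47 and 52) were chosen after their values were seen. The members, the rules and the tests were chosen with earlier results of these data known. No gene or marker list could be applied, since the files pair no gene names with clusters.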

Additional observations from a re-analysis of the deposited data

Results flagged for a closer look

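In the 27 members described singly, the 4 libraries of each subspecies were examined for 1 library far from the other 3, in 108 groups. In 11 groups the gap to the nearest other library took up more of the group's range than Dixon's 95% limit allows. Chance flags about 1 in 20 groups only where values are normally distributed, which was not tested for CPM. The share flagged over all clusters was not counted, so the 11 groups cannot be read as an excess.

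Inside marifolium, library 17 stood at 545 CPM in member 14 against 206.3 to 208.2 CPM in the other 3, and at 76.6 CPM in member 33 against 25.8 to 33.3 CPM. Marifolium 12 stood at 110.04 CPM in member 7 against 28.3 to 31.2 CPM, and marifolium 15 at 10.6 CPM in member 5 against 3.99 to 4.97 CPM. In molle, library 29 was the lowest in member 35, at 1.18 CPM against 6.10 to 6.49 CPM, and the highest in member 55, at 182 CPM against 106.1 to 116 CPM. Molle 22 was the highest in member 26, at 124 CPM against 87.6 to 91.5 CPM, and the lowest in member 57, at 2.43 CPM against 3.98 to 4.18 CPM. In andalusicum, library 1 was the lowest in member 19, at 28.1 CPM against 39.7 to 41.0 CPM, and the highest in member 30, at 10.1 CPM against 7.17 to 7.59 CPM, and library 6 was the highest in member 14, at 152 CPM against 97.1 to 101.5 CPM. No origanifolium library was among them (0 of 11).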

How the results depend on the processing

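The number of clusters meeting the rule was 60, 59 with TMM, 67 with DESeq2 size factors, 69 and 57 with count minimums of 5 and 20, and 65 by assembler gene name. Leaving out 1 library gave 63 to 179, and leaving out marifolium 12 and 18 gave 352, as fewer libraries must lie above the rest. Of members differing among the 3 other subspecies there were 3, or 5%, against 3.59% of the 18896 clusters. Alternatives gave 1 with no filter on low counts (1.67% against 1.69%) and 7 with DESeq2 (11.7% against 12.6%). They gave 0 with the libraries of a code summed (0 of the 18896) and 1 without marifolium 12 and 18 (1.67% against 2.51%). Without 1 library there were 1 to 2 (1.67% to 3.33% against 1.24% to 3.91%). Between andalusicum and molle there were 0, against 0.413% of the 18896. Alternatives gave 1 with the test run on the 18896 clusters alone (1.67% against 0.799%) and 5 with DESeq2 (8.33% against 4.34%). With limma voom and the code as a random block there was 1 (1.67% against 0.931%). Without 1 library there were 0 to 1 (0% to 1.67% against 0.148% to 0.423%). Between andalusicum and origanifolium there were 2 (3.33% against 2.3% of the 18896). Alternatives gave 1 with no filter (1.67% against 0.863%), 6 with DESeq2 (10% against 10.1%) and 0 with codes summed (0 of the 18896). Without 1 library there were 1 to 2 (1.67% to 3.33% against 0.63% to 2.68%). Between molle and origanifolium there was 1 (1.67% against 1.89%), against 2 with DESeq2 (3.33% against 8.54%) and 0 with codes summed (0 of the 18896). Without any 1 library there was 1 (1.67% against 0.54% to 2%). Between the marifolium codes every alternative run gave 0, against at most 2.49% of the 18896 clusters, with DESeq2. Gene sums stayed separated in 8 members, in 3 with TMM, in 2 of the 3 with counted partners alone, and in 8 to 10 without 1 library. The left-out library lay above in 41.4% of choices pooled over the 4 rounds, and in 41.3% to 42.9% under other minimums and TMM. Log2 ratios of all 60 members stayed above 0 with TMM and DESeq2 size factors, alternatives chosen after seeing the data; without 1 marifolium library the rule itself keeps them above 0. The cause of these shifts was not tested. No paired analysis was possible because library numbers are not shared between subspecies. Low counts limit members 1, 52 and 36 most, whose lowest counts were 12, 12 and 17.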
